A study of Mus musculus with 7 samples.

Results

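The cytochrome P450 genes of families 1 to 4 were taken from the deposited count table as every gene whose symbol consists of Cyp, a family number from 1 to 4, a subfamily letter and a gene number. This gave 72 of the 38293 genes listed, with 3 members in family 1, 47 in family 2, 7 in family 3 and 15 in family 4. All 72 were found in the GENCODE annotation of GRCm38 and all are protein-coding genes there, on 9 chromosomes. Counts were found for 57 members, and 32 members had enough counts to be tested (18 in family 2, 5 in family 3, 9 in family 4 and 0 in family 1). The remaining 25 members with counts were too low for the test, with at most 71 counts in any library, and 15 had no count. Symbols with another ending stayed outside the rule, such as the twin genes Cyp3a41a and Cyp3a41b, the pseudogenes, and Gm9705, which GENCODE calls Cyp4f37.

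The study sequenced poly(A) RNA from scrapings of the ileum of male C57BL/6NRJ mice, which took up epithelium and lamina propria but left out the muscle. The mice were 8 weeks old, were housed individually and were fed a purified AIN93G diet, high in fat (40% of the energy) and low in calcium. All were acclimatized for 1 week on the high-fat control diet. For the next 2 weeks they received the diet with normal cystine (0.38% in total, normal cys) or with the added 0.3% cystine replaced by 0.11% alanine (0.08% in total, low cys). The table holds 7 libraries, normal cys 1 to 4 (labelled X17SI4, X32SI4, SI9 and X1SI4) and low cys 1 to 3 (X23SI4, X26SI4 and X10SI4), from a study with 8 mice per diet, so each library is taken as 1 mouse. The comparison asks how 2 weeks of cystine restriction relates to the RNA level of each gene in this tissue.

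P450 enzymes carry a heme group bound through the sulfur of a cysteine and insert an oxygen atom into their substrates, with electrons that NADPH-P450 oxidoreductase delivers. In the small intestine, enterocytes use enzymes of families 2 and 3 for the first-pass oxidation of drugs and dietary compounds, family 4 enzymes hydroxylate fatty acids, leukotrienes and the side chains of fat-soluble vitamins, and several family 2 enzymes turn arachidonic acid into epoxides and hydroxy acids. Many of these genes are induced through ligand-activated receptors, with the aryl hydrocarbon receptor known for family 1, the pregnane X receptor and the constitutive androstane receptor for families 2 and 3, and PPAR alpha for the Cyp4a genes.

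The libraries held 19712355 to 22412703 counts on the normal diet and 14888760 to 21942518 on the low cys diet. Over all 14869 genes tested, 0 had a Benjamini-Hochberg adjusted p under 0.05 in edgeR's quasi-likelihood test and 817 had an unadjusted p under 0.05. The enterocyte markers chosen for the comparison (10 of 10 tested) were abundant in every library, but lower in the low cys libraries. Their summed level was 44790.0 to 63391.8 CPM in normal cys and 26271.3 to 42773.5 CPM in low cys, without overlap. The ileal genes Fabp6 and Slc10a2 averaged 5392 and 275 CPM in normal cys and 4029.7 and 315 CPM in low cys, and Lct, a gene of the more proximal small intestine, 443 and 287 CPM. Hepatocyte markers summed to 154 to 333 CPM in normal cys and 216 to 332 CPM in low cys, with albumin at 0 to 3 counts per library. Stroma markers summed to 16.004 to 27.5 CPM in normal cys and 29.3 to 39.2 CPM in low cys, and 3 of the 8 tested (Dcn, Col3a1 and Col6a1) had an unadjusted p under 0.05, all higher in low cys. In scrapings, fewer cells of a type and less RNA per cell cannot be told apart.

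The stretch of the coding sequence that encodes the heme-binding loop shows how alike the tested members are in sequence. It spans 10 codons and was located by a fixed amino acid pattern in the translated transcripts, which matched in 31 of the 32 tested members. Cyp2s1 had no match to this pattern, which does not show that it lacks the loop. The stretch is printed from GRCm38 for members the results turn on, in the direction of the transcript, with the codon of the heme-binding cysteine in capitals. Where 2 exons are named, the coordinates include the intron between them.
Cyp3a13, exon 12 of 13, chr5:137895267-137895296, minus strand: tttgggagtggaccaaggaacTGCattggc
Cyp3a11, exon 12 of 13, chr5:145858805-145858834, minus strand: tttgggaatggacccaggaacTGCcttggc
Cyp3a25, exon 12 of 13, chr5:145981468-145981497, minus strand: tttggaaatggacccaggaacTGCataggc
Cyp3a59, exon 12 of 13, chr5:146109092-146109121, plus strand: tttggaaatggacccaggaacTGCctagac
Cyp3a44, exon 12 of 13, chr5:145778005-145778034, minus strand: tttggaattggacccaggaacTGCattggc
Cyp2c44, exons 8 and 9 of 9, chr19:44005603-44007033, minus strand: ttctccctcgggaagcgatccTGTgttggc
Cyp2c55, exons 8 and 9 of 9, chr19:39038232-39042036, plus strand: ttctcaataggaaagcgaatgTGCgtggga
Cyp2c65, exons 8 and 9 of 9, chr19:39090760-39093342, plus strand: ttctcaacaggaaaacggattTGTgtggga
Cyp2c69, exons 8 and 9 of 9, chr19:39843057-39849355, minus strand: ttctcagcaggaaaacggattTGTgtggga
Cyp2d22, exons 9 and 10 of 10, chr15:82371706-82371831, minus strand: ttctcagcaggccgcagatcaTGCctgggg
Cyp2j6, exons 8 and 9 of 9, chr4:96518186-96523712, minus strand: ttctcaatgggaaagcgagctTGCctggga
Cyp2u1, exons 4 and 5 of 5, chr3:131291288-131293526, minus strand: tttgggatagggaagcgggtgTGTatggga
Cyp4b1, exons 11 and 12 of 12, chr4:115625216-115625662, minus strand: ttttctgcagggcccaggaatTGCattggg
Cyp4f14, exons 11 and 12 of 12, chr17:32905666-32906065, minus strand: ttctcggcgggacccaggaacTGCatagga
Cyp4f16, exons 12 and 13 of 13, chr17:32550798-32551068, plus strand: ttttctgccgggcccaggaacTGCatagga
Cyp4f40, exons 11 and 12 of 12, chr17:32675970-32676315, plus strand: ttctcagcggggccaaggaacTGCattgga

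Only 9 of the 30 bases were the same in all 31 stretches, and these include the first 2 bases of the cysteine codon, which was TGC in 18 members and TGT in 13. Pairs of members from the same subfamily differed at 0 to 12 of the 30 bases (median 4, 63 pairs), and pairs from different subfamilies at 4 to 19 (median 12, 402 pairs). The 31 members held 26 distinct stretches. Cyp2c65 shared its stretch with Cyp2c66, Cyp2d22 shared it with Cyp2d26, and Cyp2c69 shared it with Cyp2c40, Cyp2c67 and Cyp2c68.

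Among the members, the highest levels per length belonged to Cyp4f14, which omega-hydroxylates leukotriene B4 and vitamin E, at 617 CPM per kilobase of exon over all 7 libraries. Next came Cyp3a13, an intestinal drug-oxidizing enzyme, at 163, Cyp4f16 at 146 and Cyp2d26 at 126 CPM per kilobase. These last 3 levels lay closer together than each gene varied between libraries, where the highest library exceeded the lowest by 2.04-fold for Cyp3a13, 4.42-fold for Cyp4f16 and 5.05-fold for Cyp2d26. Cyp3a25, Cyp4f40, Cyp4v3, Cyp2c65, Cyp2j6 and Cyp2c68 followed, between 81.2 and 36.7 CPM per kilobase. At the other end, the textbook liver genes Cyp1a2, Cyp2c37, Cyp2c50, Cyp2c54, Cyp2a4 and Cyp4a14 had 0 counts in all 7 libraries, as had Cyp2a12, Cyp2a22, Cyp2b19, Cyp2b23, Cyp2c38, Cyp2g1, Cyp2j11, Cyp2j12 and Cyp2t4. A count of 0 allows up to 3 counts in a library, here 0.122 to 0.193 CPM, for counting error only. Of the members with counts but no test, Cyp4a10 had up to 71 counts in a library and the others 1 (Cyp2b9, Cyp2c39 and Cyp2c70) to 17 (Cyp2j13) at most, and the ethanol-oxidizing Cyp2e1 and the liver gene Cyp2c29 had at most 15 and 2 counts in a library. Cyp4a10, a fatty acid hydroxylase known as a PPAR alpha target, had 0, 1, 16 and 71 counts in normal cys 1 to 4 and 4, 1 and 4 in low cys 1 to 3, so most of its counts came from normal cys 4.

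**Figure D1:**
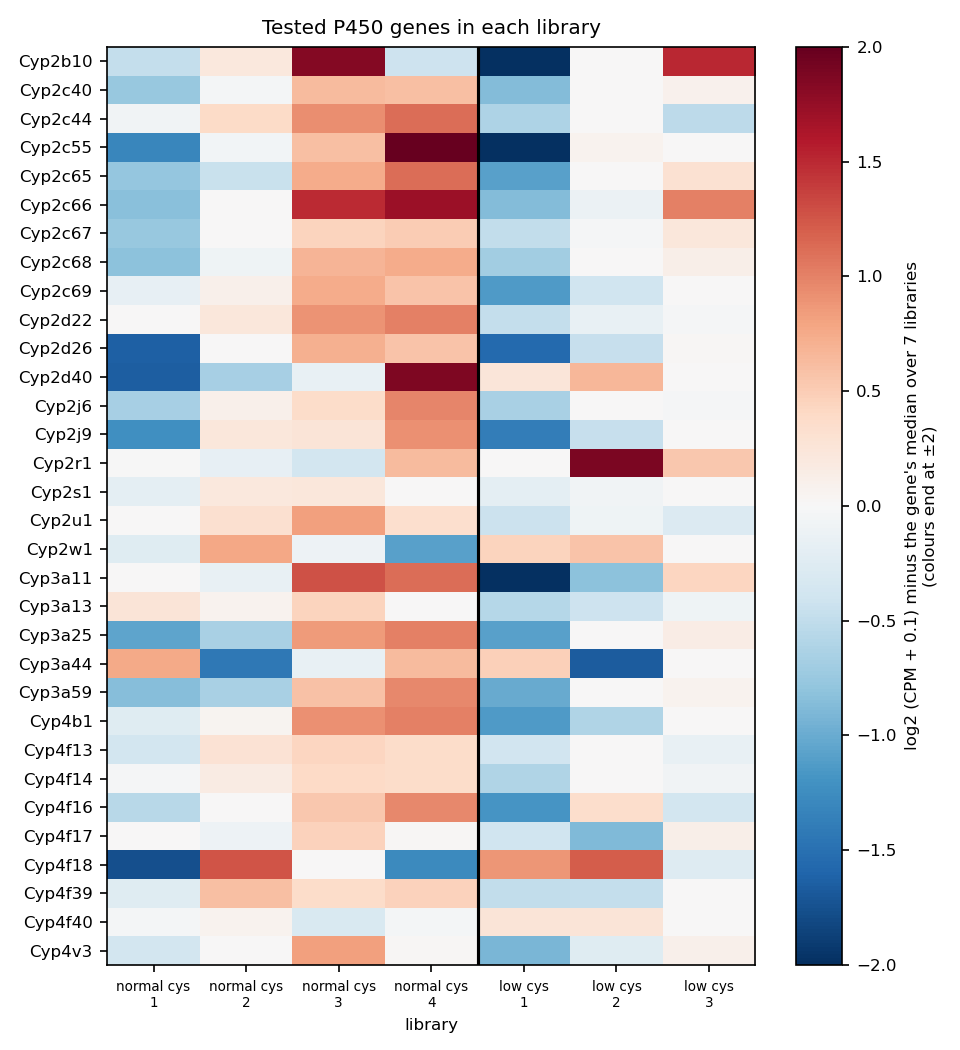
Level of each of the 32 tested P450 genes (rows, ordered by family) in each of the 7 libraries (columns), as log2(CPM + 0.1) minus the median of that gene over the libraries, so that red is above and blue below the median; colours end at 2 in either direction. Normal cys 3 and normal cys 4 are red in most rows, and low cys 1 and normal cys 1 are blue in most rows.

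Between the diets, 28 of the 32 tested members had a lower estimate in low cys, with a median log2 fold change of -0.50 (low cys over normal cys), whereas 48.8% of all tested genes had a lower estimate, with a median of 0.01. No member passed the adjusted threshold, which was passed by 0.0% of all genes tested, and the smallest adjusted p among the members was 0.794 (edgeR quasi-likelihood test, Benjamini-Hochberg). DESeq2 and limma-voom also gave 0 members with an adjusted p under 0.05, and DESeq2 gave 16 such genes (0.0928%) over the whole table. At an unadjusted edgeR p under 0.05 there were 6 members of 32 (18.8%), against 5.49% of all genes tested. All 6 were lower in low cys, which 2.83% of all genes were at this p, and 0 were higher, against 2.66%. The 6 were Cyp2u1, Cyp3a13, Cyp2d22, Cyp2c44, Cyp4b1 and Cyp2c69, and of these Cyp2u1 alone had such a p in each of the 7 fits that left out 1 library. DESeq2, run on all genes with counts and not only those with enough counts for edgeR, gave an unadjusted p under 0.05 to 9 of its 57 members (15.8%), against 4.5% of its 22778 genes, and limma-voom gave it to 8 of the 32 members, against 6.29% of all genes. The edgeR count was 12 of the 33 members tested without normal cys 1 (when 11.9% of all genes had such a p) and 2 of the 34 tested without low cys 1 (1.71% of all genes).

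The libraries of the diets did not overlap in 3 of the 32 members (9.38%), against 6.83% of all genes tested. In all 3, Cyp2u1, Cyp3a13 and Cyp2d22, every low cys library lay below every normal cys library, the direction found in 3.51% of all genes tested. The reverse, found in 3.32% of all genes, was found in 0 members. Leaving out a library moves this share for all genes too. Without normal cys 1 it was 12 of the 32 members (37.5%, against 18% of all genes), and without low cys 3 it was 9 (28.1%, against 11.6%). It was 5 members (15.6%) without normal cys 2, normal cys 4 or low cys 2, against 12.8%, 11.9% and 19.7% of all genes. With counts scaled to the library totals only it was 1 member, against 8.25% of all genes. By family, the median log2 fold change was -0.51 over the 18 tested members of family 2, -0.53 over the 5 of family 3 and -0.44 over the 9 of family 4.

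**Figure D2:**
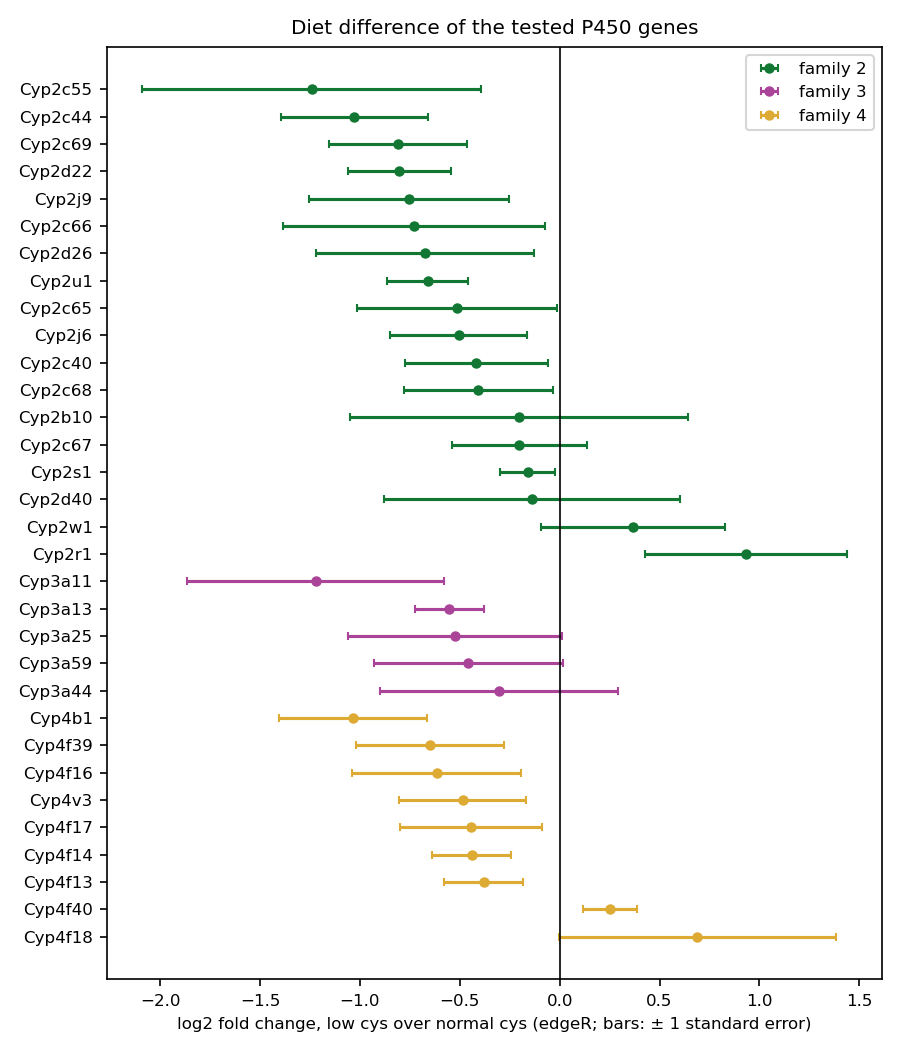
Log2 fold change of each tested P450 gene, low cys over normal cys, from edgeR, with bars of 1 standard error to each side and colours for families 2, 3 and 4. Of the 32 points, 28 lie to the left of 0, from -1.24 for Cyp2c55 upward, and 4 lie to the right (Cyp2w1, Cyp2r1, Cyp4f40 and Cyp4f18).

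Family 3 was represented by the Cyp3a genes of chromosome 5, whose enzymes oxidize drugs, steroids and bile acids. Cyp3a13 (chr5:137892932-137921619, minus strand) made up 67.4% of the summed level of the family. It was measured at 577, 508, 660.1 and 483 CPM in normal cys 1 to 4 and 324, 360.4 and 454 CPM in low cys 1 to 3. All 3 low cys libraries lay below all 4 normal cys libraries, with 557 ± 79.6 CPM (SD, n = 4) against 379.6 ± 67.1 CPM (SD, n = 3). The log2 fold change was -0.55 (SE 0.174, unadjusted edgeR quasi-likelihood p = 0.0111, Benjamini-Hochberg adjusted p = 0.794), and the two-sided exact permutation test over all 35 ways to assign the libraries gave p = 0.0286, the smallest it can give. Without low cys 1 the log2 fold change was -0.44.

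Cyp3a11, the main pregnane X receptor-induced Cyp3a gene of the liver, was measured at 37.8, 34.2, 91.1 and 82.2 CPM in normal cys 1 to 4 and 6.49, 21.4 and 51.2 CPM in low cys 1 to 3. Low cys 1 stood far below the others and low cys 3 lay within the normal cys range, so the groups overlapped, with a log2 fold change of -1.22 (SE 0.645, edgeR adjusted p = 0.794). Cyp3a25 was measured at 75.97, 100.02, 285 and 317 CPM in normal cys 1 to 4 and 74.2, 157 and 174 CPM in low cys 1 to 3. Its lowest values were those of low cys 1 and normal cys 1, and the log2 fold change was -0.53 (SE 0.536, edgeR adjusted p = 0.825). Its neighbour Cyp3a59 followed the same order of libraries from 7.06 CPM in low cys 1 to 27.8 CPM in normal cys 4, with a log2 fold change of -0.46 (SE 0.474, edgeR adjusted p = 0.828), but 26.8% and 30.02% of the 50-base stretches of Cyp3a25 and Cyp3a59 also occur in another gene, mostly in each other, so their counts are uncertain. Cyp3a44 was low (mean 2.27 CPM in normal cys), with 26.5% of its 50-base stretches shared, most often with Cyp3a41a, and its log2 fold change was -0.30 (SE 0.595, edgeR adjusted p = 0.895). Cyp3a16 and Cyp3a57 had at most 11 and 6 counts in a library.

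The 250 bases before the start of 4 of these genes are shown because all 4 were highest in normal cys 3 or normal cys 4 and lowest in low cys 1, while the libraries of the diets overlapped in Cyp3a11, Cyp3a25 and Cyp3a59 but not in Cyp3a13. Cyp3a44, not shown, had another order, highest in normal cys 1 (3.45 CPM) and lowest in low cys 2 (0.562 CPM). The sequences are from RefSeq (GRCm38.p6), written in the direction of transcription, and the capitals mark the nuclear receptor core motifs AGGTCA and AGTTCA, on the other strand read as TGACCT and TGAACT.
Cyp3a13, chr5:137921620-137921869, minus strand: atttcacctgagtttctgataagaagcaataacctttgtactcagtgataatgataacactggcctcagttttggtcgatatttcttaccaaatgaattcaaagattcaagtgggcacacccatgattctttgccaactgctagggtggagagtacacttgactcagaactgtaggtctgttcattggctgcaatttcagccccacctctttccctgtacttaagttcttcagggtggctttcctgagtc
Cyp3a11, chr5:145879855-145880104, minus strand: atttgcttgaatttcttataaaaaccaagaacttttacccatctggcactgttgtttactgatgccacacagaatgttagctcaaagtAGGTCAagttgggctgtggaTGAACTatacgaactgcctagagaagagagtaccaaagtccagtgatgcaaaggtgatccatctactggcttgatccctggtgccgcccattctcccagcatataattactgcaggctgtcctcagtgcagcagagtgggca
Cyp3a25, chr5:146009619-146009868, minus strand: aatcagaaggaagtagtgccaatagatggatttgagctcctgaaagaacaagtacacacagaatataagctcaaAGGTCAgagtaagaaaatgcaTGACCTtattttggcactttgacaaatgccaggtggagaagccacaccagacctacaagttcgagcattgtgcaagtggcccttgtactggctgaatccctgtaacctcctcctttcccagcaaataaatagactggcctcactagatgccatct
Cyp3a59, chr5:146079008-146079257, plus strand: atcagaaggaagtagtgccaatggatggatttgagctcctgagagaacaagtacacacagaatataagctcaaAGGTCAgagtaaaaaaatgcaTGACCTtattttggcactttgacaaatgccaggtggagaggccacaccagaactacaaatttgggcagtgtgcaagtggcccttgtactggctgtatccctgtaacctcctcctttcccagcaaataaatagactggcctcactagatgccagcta

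AGGTCA was found, on either strand, before 4 of the 28 tested members with an entry (14.3%), against 13.8% of 27025 promoters of the same length. All 4 were Cyp3a genes (Cyp3a11, Cyp3a25, Cyp3a44 and Cyp3a59), and Cyp3a13 held neither of these motifs in this window. AGTTCA was found before 5 of the 28 (17.9%, against 11.9% of all promoters), and the core GCGTG of the aryl hydrocarbon receptor element before 8 (28.6%, against 28.2%). TATAAA was found before 8 members (28.6%, against 13.0%) and the HNF1 motif GTTAAT before 5 (17.9%, against 6.52%). The windows of Cyp3a25 and Cyp3a59 were 94.8% identical when aligned, and those of the other pairs of Cyp3a genes were 51.4% to 72.5% identical. A match of these letters is a description of the sequence, not a bound site.

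Family 2 held most of the members. Cyp2u1 (chr3:131290491-131303227, minus strand), which hydroxylates arachidonic acid and other long-chain fatty acids, was measured at 16.3, 20.5, 28.9 and 20.6 CPM in normal cys 1 to 4 and 12.04, 15.4 and 13.5 CPM in low cys 1 to 3. The groups did not overlap, with 21.6 ± 5.26 CPM (SD, n = 4) against 13.6 ± 1.67 CPM (SD, n = 3). The log2 fold change was -0.66 (SE 0.203, unadjusted edgeR quasi-likelihood p = 0.00981, Benjamini-Hochberg adjusted p = 0.794), and the exact permutation test gave p = 0.0571 (two-sided). Cyp2d22 (chr15:82370528-82380260, minus strand), often taken as the mouse counterpart of the human drug-metabolizing CYP2D6, was measured at 28.2, 33.02, 52.5 and 56.9 CPM in normal cys 1 to 4 and 20.1, 25.3 and 27.8 CPM in low cys 1 to 3. Its groups did not overlap either, although normal cys 1 and low cys 3 lay close together, and the log2 fold change was -0.80 (SE 0.258, unadjusted edgeR quasi-likelihood p = 0.0124, Benjamini-Hochberg adjusted p = 0.794), with p = 0.0571 in the two-sided exact permutation test. Cyp2d26, the most abundant member of family 2 (26.7% of its summed level), ranged from 71.8 to 363 CPM in normal cys and from 75.7 to 226 CPM in low cys, and its log2 fold change of -0.67 (SE 0.544, edgeR adjusted p = 0.804) lay within the spread between mice.

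All 8 tested Cyp2c genes, all on chromosome 19, had a lower estimate in low cys, with a median log2 fold change of -0.62. Cyp2c44 (chr19:44005022-44029247, minus strand), an arachidonic acid epoxygenase called Cyp2c23 in GENCODE, was measured at 1.36, 1.91, 2.84 and 3.25 CPM in normal cys 1 to 4 and 0.898, 1.44 and 0.967 CPM in low cys 1 to 3. Low cys 2 lay above normal cys 1, and the other low cys libraries lay below all normal cys libraries. The log2 fold change was -1.03 (SE 0.368, unadjusted edgeR quasi-likelihood p = 0.0208, Benjamini-Hochberg adjusted p = 0.794), and its exact permutation test gave p = 0.0857 (two-sided). This gene rested on few counts, from 15 to 68 per library, but shared 0% of its 50-base stretches with other genes. Cyp2c69 (chr19:39842660-39886769, minus strand) was measured at 2.82, 3.41, 5.36 and 4.73 CPM in normal cys 1 to 4 and 1.39, 2.37 and 3.16 CPM in low cys 1 to 3. Low cys 3 overlapped the normal cys libraries, and the log2 fold change was -0.81 (SE 0.345, unadjusted edgeR quasi-likelihood p = 0.0432, Benjamini-Hochberg adjusted p = 0.794), with p = 0.114 in the two-sided exact permutation test. Of its 50-base stretches, 54.3% also occur in another gene, most often in Cyp2c40, so its count is uncertain.

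The intestinal arachidonic acid epoxygenases Cyp2c65 and Cyp2c66 overlapped widely between the diets. Cyp2c65 was measured at 46.7, 58.6, 134 and 174 CPM in normal cys 1 to 4 and 37.6, 80.1 and 99.4 CPM in low cys 1 to 3, with a log2 fold change of -0.51 (SE 0.502, edgeR adjusted p = 0.820). Cyp2c66 was lower in level but had a like order of libraries, from 3.92 CPM in low cys 1 to 23.7 CPM in normal cys 4, and part of the 50-base stretches of each gene (20.6% and 19.5%) are shared, mostly with the other. Cyp2c55, which hydroxylates arachidonic acid and is induced through the constitutive androstane receptor, had the lowest estimate of all members at -1.24 (SE 0.848, edgeR adjusted p = 0.794). It was measured at 16.6, 39.6, 62.3 and 163 CPM in normal cys 1 to 4 and 5.55, 43.1 and 40.99 CPM in low cys 1 to 3, so that normal cys 4 and low cys 1 stood 29.4-fold apart while low cys 2 and low cys 3 lay between normal cys 1 and normal cys 3. Cyp2c68, abundant too, had a log2 fold change of -0.41 (SE 0.373, edgeR adjusted p = 0.811).

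Of the other family 2 genes, Cyp2j6, an intestinal epoxygenase, was measured at 92.01, 157, 189 and 286 CPM in normal cys 1 to 4 and 93.5, 146 and 143 CPM in low cys 1 to 3, with a log2 fold change of -0.51 (SE 0.342, edgeR adjusted p = 0.794). Cyp2s1, an epithelial enzyme of retinoid and eicosanoid metabolism, varied least between libraries among the tested members, with 75.6, 100.3, 101 and 86.2 CPM in normal cys 1 to 4 and 75.1, 82.2 and 86.2 CPM in low cys 1 to 3. Its highest library exceeded its lowest by 1.34-fold, and its log2 fold change was -0.16 (SE 0.137, edgeR adjusted p = 0.804). Cyp2b10, the classical target of the constitutive androstane receptor, was measured at 10.03, 16.2, 50.1 and 10.5 CPM in normal cys 1 to 4 and 2.69, 13.999 and 40.1 CPM in low cys 1 to 3. Here normal cys 3 and low cys 3 stood above the rest, and the log2 fold change of -0.20 (SE 0.847, edgeR adjusted p = 0.954) changed sign without normal cys 3 (0.61) or without low cys 1 (0.34). Cyp2r1, which starts the activation of vitamin D, had the highest estimate of all members at 0.93 (SE 0.506, edgeR adjusted p = 0.794). Its level was low, 0.366, 0.318, 0.263 and 0.621 CPM in normal cys 1 to 4 and 0.367, 1.62 and 0.580 CPM in low cys 1 to 3, and low cys 2 alone lay above all normal cys libraries. Without low cys 2 its log2 fold change was 0.22. The other 7 tested members (Cyp2c40, Cyp2c67, Cyp2d40, Cyp2j9, Cyp2w1, Cyp4f17 and Cyp4f39) had log2 fold changes from -0.75 for Cyp2j9 to 0.37 for Cyp2w1, with edgeR adjusted p from 0.794 to 0.968.

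**Figure D3:**
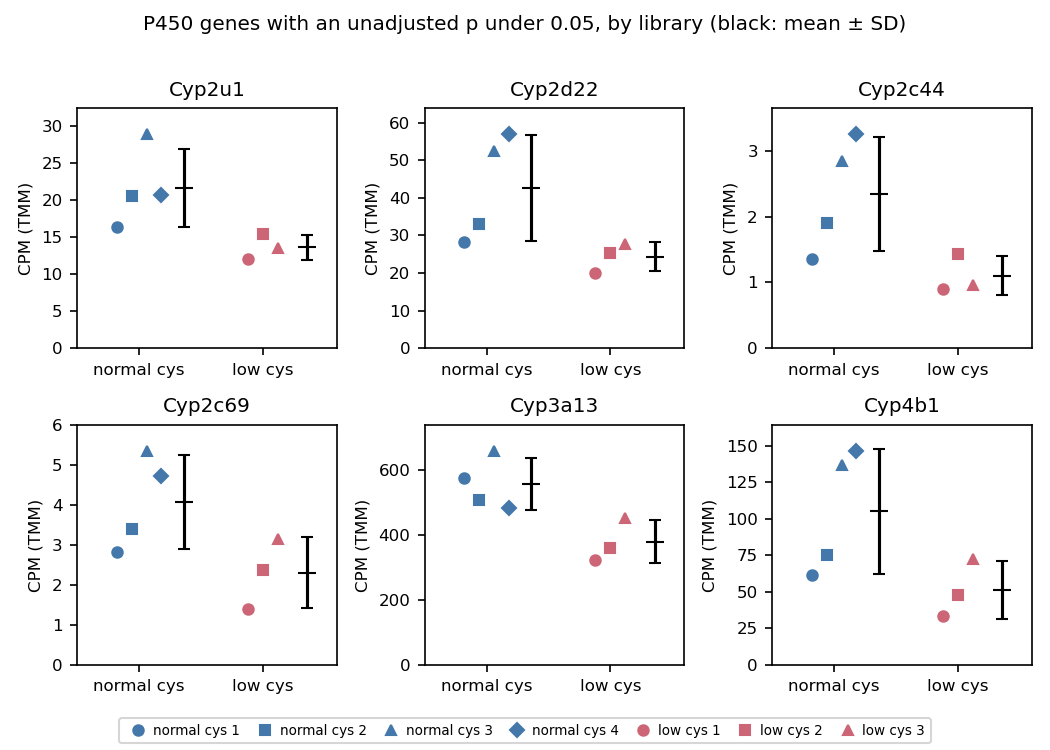
Level in CPM (linear axis from 0) of the 6 P450 genes with an unadjusted edgeR p under 0.05, with 1 point per library and the mean ± SD of each diet in black. The low cys points lie below all normal cys points in Cyp2u1, Cyp2d22 and Cyp3a13, and at least 1 low cys point overlaps the normal cys points in Cyp2c44, Cyp2c69 and Cyp4b1.

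In family 4, Cyp4b1 (chr4:115624725-115647709, minus strand), which hydroxylates medium-chain fatty acids and activates some protoxins, was measured at 61.8, 75.2, 137 and 147 CPM in normal cys 1 to 4 and 33.2, 48.1 and 72.8 CPM in low cys 1 to 3. Low cys 3 lay between normal cys 1 and normal cys 2, and the other low cys libraries lay below all normal cys libraries. Mean levels were 105 ± 42.9 CPM (SD, n = 4) against 51.4 ± 19.97 CPM (SD, n = 3), and the log2 fold change was -1.03 (SE 0.369, unadjusted edgeR quasi-likelihood p = 0.0216, Benjamini-Hochberg adjusted p = 0.794), with p = 0.114 in the two-sided exact permutation test. Cyp4f14 (chr17:32905071-32917342, minus strand), the most abundant member, made up 55.8% of the summed level of the family and 35.8% of that of families 1 to 4. It was measured at 1395, 1582, 1879 and 1839 CPM in normal cys 1 to 4 and 931, 1419 and 1349 CPM in low cys 1 to 3. Low cys 1 was the lowest library, and low cys 2 lay just above normal cys 1. The log2 fold change was -0.44 (SE 0.199, unadjusted edgeR quasi-likelihood p = 0.0533, Benjamini-Hochberg adjusted p = 0.794), with an exact permutation p of 0.0857 (two-sided), while DESeq2 gave an unadjusted p of 0.0266.

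The other Cyp4f genes of chromosome 17 did not all share a direction. Cyp4f13 had a log2 fold change of -0.38 (SE 0.197, edgeR adjusted p = 0.794) and Cyp4f16 one of -0.62 (SE 0.423, edgeR adjusted p = 0.794). Cyp4f16 was measured at 278, 406, 590.3 and 791 CPM in normal cys 1 to 4 and 179, 517 and 315 CPM in low cys 1 to 3, so low cys 2 lay within the normal cys range, and 17.4% of its 50-base stretches are shared, mostly with Gm9705 (Cyp4f37). Cyp4f40 was an abundant member with a higher estimate in low cys. It was measured at 137, 149, 115 and 138 CPM in normal cys 1 to 4 and 170.1, 169.9 and 142 CPM in low cys 1 to 3. The lowest low cys library lay within the normal cys range, and the log2 fold change was 0.25 (SE 0.135, edgeR adjusted p = 0.794). Cyp4f18, the leukotriene B4 hydroxylase of myeloid cells, was low, at 0.209, 2.41, 0.946 and 0.334 CPM in normal cys 1 to 4 and 1.84, 2.31 and 0.773 CPM in low cys 1 to 3, and varied 11.5-fold between libraries in no order of diet. Cyp4v3, a fatty acid hydroxylase whose human counterpart CYP4V2 is mutated in a retinal dystrophy, was measured at 341, 439, 777 and 447 CPM in normal cys 1 to 4 and 232, 372 and 469 CPM in low cys 1 to 3, with a log2 fold change of -0.49 (SE 0.317, edgeR adjusted p = 0.794). Its exons overlap those of Klkb1 on the same strand, so some of its counts may be shared.

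Family 1, the classical targets of the aryl hydrocarbon receptor, was close to the detection limit in the ileum on both diets. Cyp1a1, which oxidizes dietary aromatic compounds, had 7, 6, 4 and 3 counts in normal cys 1 to 4 and 0, 2 and 9 in low cys 1 to 3. Cyp1b1 had 4, 4, 8 and 0 counts in normal cys and 8, 9 and 4 in low cys, and Cyp1a2 had 0 counts in all libraries. No member of the family could be tested, and a diet difference of family 1 was not detectable at this depth.

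Summed over their members, families 2, 3 and 4 were lower on average in low cys, and the libraries of the diets overlapped in each family. Family 2 summed to 899 ± 399 CPM in normal cys (SD, n = 4) and 612 ± 209 CPM in low cys (SD, n = 3), a log2 ratio of -0.56. Family 3 summed to 832 ± 189 CPM and 555 ± 141 CPM, a log2 ratio of -0.58. Family 4 was the most abundant, with 3009 ± 622 CPM and 2199.6 ± 529 CPM, a log2 ratio of -0.45. Family 1 summed to 0.451 ± 0.218 CPM and 0.617 ± 0.263 CPM, a log2 ratio of 0.45 that rested on few counts. Together the 72 genes held 0.451% ± 0.0943 of all counts in normal cys and 0.354% ± 0.0753 in low cys (SD, n = 4 and 3). Leaving out each library in turn moved the log2 ratio between -0.79 and -0.31 for family 2, between -0.78 and -0.41 for family 3, and between -0.59 and -0.27 for family 4, so each kept its sign.

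**Figure D4:**
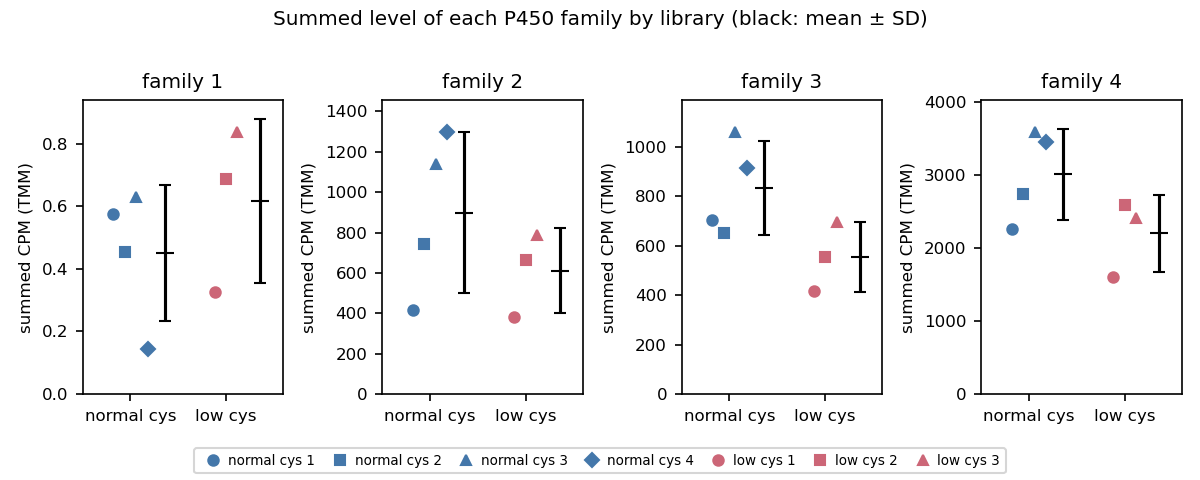
Summed level in CPM (linear axes from 0, a different scale in each panel) of the members of each P450 family, with 1 point per library and the mean ± SD of each diet in black. Low cys 1 is the lowest library in families 2, 3 and 4, normal cys 3 and normal cys 4 are the highest in these families, and the diets overlap in every panel.

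The order of the libraries was alike in most members. Normal cys 3 or normal cys 4 was the highest library for 26 of the 32 tested members (81.3%), against 38.2% of all genes tested, and low cys 1 or normal cys 1 was the lowest for 27 (84.4%), against 33.5% of all genes. These pairs are the libraries most often highest and lowest among the same members, which favours the members in the comparison with all genes. Low cys 1 alone was the lowest library for 21 members (65.6%, against 18.8% of all genes), and normal cys 1 for 6 (18.75%, against 14.7%). The mean log2 CPM over the tested members was 3.71, 4.23, 4.76 and 4.80 in normal cys 1 to 4 and 3.47, 4.15 and 4.30 in low cys 1 to 3. In this order normal cys 1 lay below low cys 2 and low cys 3, and low cys 1 lay below all other libraries. The labels give no batch, litter or extraction date, so a batch could not be examined. The label SI9 (normal cys 3) lacks the X and the ending SI4 of the other labels, and their meaning is not stated. Its proximal small intestine markers had the highest mean log2 CPM (6.83, against 5.43 to 6.64 in the other libraries). Its distal markers were at 9.06, within the range of the other libraries (8.74 to 9.62).

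The enterocyte markers had the same lowest library, low cys 1, and the same 2 highest, normal cys 3 and normal cys 4, as the mean of the P450 genes. The orders differed at normal cys 1, which lay below low cys 2 and low cys 3 in the mean of the P450 genes. In the mean log2 CPM of the enterocyte markers it lay above all low cys libraries (11.69, against 10.98, 11.65 and 11.59 in low cys 1 to 3). All 10 had a lower estimate in low cys (median log2 fold change -0.39), and 3 had an unadjusted p under 0.05, namely Apoa1 at -0.79 (SE 0.292, edgeR adjusted p = 0.794), Cdhr2 at -0.43 (SE 0.177, edgeR adjusted p = 0.794) and Krt20 at -0.41 (SE 0.180, edgeR adjusted p = 0.794). Their mean log2 CPM was 11.88 in normal cys and 11.41 in low cys. Relative to the summed enterocyte markers, the log2 ratio of the diet means was 0.016 for family 2, -0.022 for family 3 and 0.10 for family 4. With the mean log2 CPM of the markers as a covariate in edgeR, a fit added after the values were seen, 12 of the 32 members had a lower estimate in low cys, with a median log2 fold change of 0.21, and 1 had an unadjusted p under 0.05 (3.13%, against 1.45% of all genes), Cyp2r1, with a higher estimate in low cys (1.64). In that fit the log2 fold change was -0.36 for Cyp3a13, -0.31 for Cyp2u1, -0.22 for Cyp2d22, -0.41 for Cyp2c44, -0.15 for Cyp4b1 and -0.07 for Cyp2c69. The covariate itself was 11.69 to 12.11 in normal cys and 10.98 to 11.65 in low cys, without overlap. The fit therefore cannot tell a difference in the markers apart from one in the diet. Crypt and proliferating cell markers had a higher estimate in low cys for 9 of 9 genes (median log2 fold change 0.61, 0 with an unadjusted p under 0.05). The distal small intestine markers had a median of -0.38 and the proximal ones a median of -0.41 (0 of 7 and 0 of 9 with such a p). Smooth muscle markers were higher in estimate for 7 of 7 (2 with such a p, Des and Actg2), with summed levels that overlapped between the diets. Their mean log2 CPM varied widely between libraries, from 0.08 to 1.97 in normal cys and from 0.88 to 3.33 in low cys. Of the immune cell markers 1 of 10 had such a p, the joining chain gene Igj, higher in low cys, and of the goblet and Paneth cell markers 0 of 11. The part that the makeup of the scrapings had in the P450 levels was not tested.

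**Figure D5:**
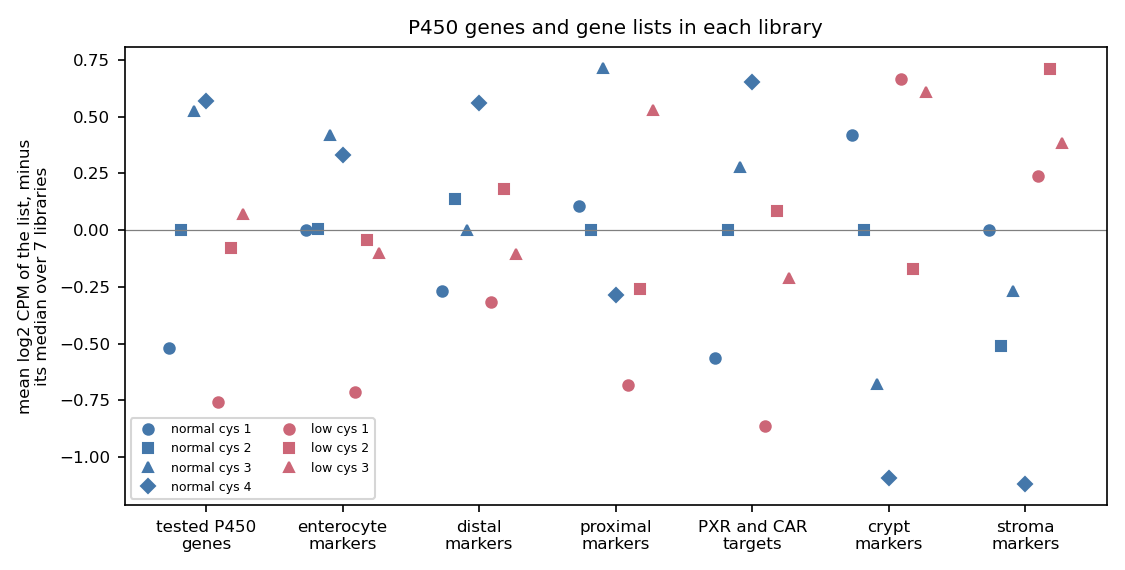
Mean log2 CPM of the 32 tested P450 genes and of 6 gene lists in each library, minus the median of that list over the 7 libraries, so that 0 is the middle library. Low cys 1 is the lowest and normal cys 3 and normal cys 4 are the highest libraries for both the P450 genes and the enterocyte markers, while normal cys 4 is the lowest for the crypt and stroma markers.

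Genes that act with the P450 enzymes were described from lists chosen with earlier results of these data known. Of the redox partners and heme genes, 22 were tested, 13 with a lower and 9 with a higher estimate in low cys, and 0 had an unadjusted p under 0.05 (median log2 fold change -0.10, against 0.01 over all genes). Por, which encodes NADPH-P450 oxidoreductase, averaged 125 and 72.5 CPM in normal cys and low cys and had the estimate farthest from 0 in this list, at -0.79 (SE 0.359, edgeR adjusted p = 0.794). Alas1, the rate-limiting enzyme of heme synthesis, had -0.17 (SE 0.178, edgeR adjusted p = 0.830). Of the receptors that control P450 genes, 20 were tested, 14 with a lower estimate (median -0.12), and 0 had an unadjusted p under 0.05. The pregnane X receptor gene Nr1i2 was at -0.14 (SE 0.131, edgeR adjusted p = 0.817), the constitutive androstane receptor gene Nr1i3 at -0.76 (SE 0.545, edgeR adjusted p = 0.798), Ahr at 0.09 (SE 0.225, edgeR adjusted p = 0.916) and Ppara at -0.17 (SE 0.298, edgeR adjusted p = 0.883).

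Targets of the pregnane X and constitutive androstane receptors outside the P450 families, such as transporters, carboxylesterases and conjugating enzymes, had a lower estimate in low cys for 13 of 13 genes, with a median log2 fold change of -0.62 and 0 with an unadjusted p under 0.05. In mean log2 CPM, low cys 1 was the lowest library for this list (6.02), and normal cys 3 (7.16) and normal cys 4 (7.53) were the highest. The same libraries were lowest and highest for the P450 genes and the enterocyte markers. The cause was not tested. The list includes Por and Alas1. Among its members, the carboxylesterase Ces2a had -0.76 (SE 0.443, edgeR adjusted p = 0.794) and the efflux pump Abcb1a -0.63 (SE 0.590, edgeR adjusted p = 0.817). For targets of the aryl hydrocarbon receptor the median was -0.13 over 9 tested genes, and for those of PPAR alpha it was -0.06 over 12, each with 0 genes at an unadjusted p under 0.05. Epoxide hydrolases and eicosanoid enzymes had a median of -0.19 over 11 tested genes, also with 0 at that p. Ephx2, the soluble epoxide hydrolase, which opens the epoxides that Cyp2c and Cyp2j enzymes make, had -0.88 (SE 0.453, edgeR adjusted p = 0.794). Of the P450 genes of other families, 5 were tested and 1 had an unadjusted p under 0.05, Cyp39a1, an oxysterol hydroxylase of bile acid synthesis, which averaged 2.91 and 5.16 CPM in normal cys and low cys, a log2 fold change of 0.81 (SE 0.286, edgeR adjusted p = 0.794).

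How far reads of near-identical members can be told apart was described by cutting the transcripts of each member into 50-base stretches, the read length, and giving the percentage found in any other gene too. In 16 of the 32 tested members this share was under 5%, and in 8 it was over 20%, up to 60.3% for Cyp2c40. Of the 6 members with an unadjusted p under 0.05, Cyp3a13 and Cyp2c44 shared 0%, Cyp2u1 2.60%, Cyp2d22 4.13% and Cyp4b1 8.26%, whereas Cyp2c69 shared 54.3%. Exons of Cyp2u1, Cyp2c55, Cyp2s1 and Cyp4f18 overlap another gene on the opposite strand, and the strand setting of the counting is not given in the sources used here.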

How the data were processed

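RNA was measured by poly(A) RNA sequencing of ileal scrapings from 7 mice, 4 on the normal cystine and 3 on the low cystine diet, grouped by their labels. The authors deposited raw read counts per gene over its exons, without normalization, beside the exon length of each gene in bases. Per the paper's methods, paired reads of 50 bases were trimmed with TrimGalore, cleared of ribosomal RNA with SortMeRNA, aligned to GRCm38 with STAR and counted with featureCounts. Its handling of reads that map to several genes is not given in the sources used here, which bears on near-identical members.

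From these counts, genes were kept by filterByExpr (minimum count 10, minimum total count 15), normalized by TMM and compared with edgeR's robust quasi-likelihood test (version 4.0.16, R 4.3.3) without covariate, with Benjamini-Hochberg adjustment over all 14869 genes tested. The biological coefficient of variation was 25.5%. CPM values are the counts scaled by TMM library sizes, and log2 levels used a prior count of 2. For single genes a two-sided exact permutation test was run besides, with 0.0286 as its smallest p. DESeq2 (version 1.42.0), limma-voom (version 3.58.1), other size factors and filters, and leaving out each library were the alternatives. The scripts were tested on simulated data, and no library was a duplicate.

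The members, gene lists, motifs and printed promoters were chosen with earlier results of these data known, and the enterocyte covariate was added after these values were seen. Genes named are the 8 members with the smallest p, the 4 most abundant per family, those without overlap and a list of textbook genes, plus members and list genes that a count singled out. P-values compare the diet difference with the spread between these mice only. Gene positions, coding stretches and shared 50-base stretches came from GENCODE M21, and promoters from RefSeq (GRCm38.p6, 250 bases upstream).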

Additional observations from a re-analysis of the deposited data

How the results depend on the processing

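No member passed the adjusted threshold under any alternative, with edgeR, DESeq2 or limma-voom. Over all genes, DESeq2 called 16 and the other alternatives 0, except that leaving out 1 library in turn gave 0 to 1 (1 without normal cys 2). Members with an unadjusted p under 0.05 numbered 6 to 9 of the 25 to 57 tested under the other tools, size factors and filters. These were 15.8% to 25% of the members, against 4.5% to 6.97% of all genes. With 1 library left out they numbered 2 to 12 of 30 to 36 (5.88% to 36.4%, against 1.71% to 11.9% of all genes). With enterocyte markers as a covariate, 1 of 32 had such a p (3.13%, against 1.45%). Members without overlap numbered 3 to 12 of 32 with 1 library left out, while the share over all genes went from 8.71% to 19.7%, and 1 with scaling to library totals only (8.25% of all genes). That scaling moved the median log2 fold change of all genes to 0.15 and that of the members to -0.35, and left 5 of 6 members with an unadjusted p under 0.05 lower, the other being Cyp4f40. The choice of test does not enter the overlap of libraries, so DESeq2, limma-voom and the non-robust fit gave no value there. Leaving out 1 library moved the log2 ratio of family 1 between 0.16 and 0.76.

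Relative to the enterocyte markers, the log2 ratio was 0.016 for family 2, -0.022 for family 3 and 0.10 for family 4. With the covariate, log2 fold changes turned positive for 16 of the 32 tested members: Cyp2j9 (0.17), Cyp2c40 (0.46), Cyp2c67 (0.45), Cyp2d40 (0.86), Cyp2d26 (0.52), Cyp2c65 (0.79), Cyp2j6 (0.19), Cyp2c68 (0.48), Cyp3a25 (0.90), Cyp3a11 (0.31), Cyp3a59 (0.76), Cyp4f16 (0.37), Cyp4v3 (0.23), Cyp2b10 (1.55), Cyp2c55 (0.80) and Cyp2c66 (0.91). The covariate did not overlap between the diets, so that fit cannot tell the markers apart from the diet. Cyp2b10 ranged from -1.39 to 0.61 with 1 library left out. Cyp2d40 was positive with limma-voom (0.55), library totals (0.01) and without normal cys 4 (1.02), and Cyp3a44 without low cys 2 (0.11). The cause was not tested. For the members chosen by the rule for named genes, the other 329 values kept their direction and their side of the adjusted threshold.

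No paired analysis was possible because the labels name no pairs of mice across the diets. With 3 and 4 mice the precision is limited by the spread between mice, and for genes with few counts by counting error as well.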

Other observations

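Genes next to the rule were read in the same table. Gm9705, which GENCODE calls Cyp4f37, was abundant, with 533, 865, 1006 and 1633 counts in normal cys 1 to 4 and 503, 783 and 475 counts in low cys 1 to 3, and shares sequence with Cyp4f16. Cyp3a41a and Cyp3a41b each had 23 counts in normal cys 4 and at most 9 in any other library. Cyp4a10 also had most of its counts in normal cys 4. Of the 27 values examined for a single outlying mouse among the 4 normal cys libraries by Dixon's criterion, 0 passed it, where chance gives 1.35. With 4 libraries only a value far from the rest can pass, and the 27 values come from the same libraries. The low cys libraries are not part of this count, so it does not show that no mouse was outlying.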
